A study of Mus musculus with 35 samples.

Results

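The genes described here are 9 replication licensing genes of the mouse, Mcm2, Mcm3, Mcm4, Mcm5, Mcm6, Mcm7, Mcm10, Cdc6 and Cdt1, out of 18820 genes that had a probe set of their own on the arrays. They were chosen by name, with earlier results of these data known. Each had exactly 1 probe set annotated to it alone, and all 9 were measured in all 8 groups. The study set 3 mouse models of liver cancer side by side, with 35 livers or liver tumors on 1 Affymetrix array each. In the DEN model, mice had received the carcinogen diethylnitrosamine (10 mg per kg body weight, injected into the abdomen on day 15 of life) and were examined at 9 months. There were 5 tumors, 5 pieces of non-tumorous liver (NTL) and 5 livers of untreated mice. In the LT model, tg1223 mice, in which liver cells make lymphotoxin alpha and lymphotoxin beta, were observed up to 12 months of age, which gave 3 tumors and 5 NTL pieces. In the MYC model, a TRE-MYC transgene was driven by LAP-tTA, a liver promoter with the tetracycline transactivator, and was held off by doxycycline chow (200 mg/kg) until 8 weeks of age. It gave 5 tumors and 3 NTL pieces. The LT and MYC models share 4 control livers from mice without the transgene, and the labels call both sets of controls matched in sex and age. The age of the MYC mice at dissection and the mouse strains were not stated.

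Some facts limit these groups. No tumor array shared a mouse identifier with an NTL array, so tumors and NTL were not pairs from the same animal. DEN tumors 1 and 4, DEN tumors 3 and 5, and LT tumors 1 and 2 shared the stem of an identifier and may be tumors of the same mouse. The MYC NTL identifiers begin with WT, and the labels do not settle what that stands for. The Xist transcript, made from the inactive X chromosome of female cells, lay between 11.74 and 12.22 (log2) on 9 arrays and at or below 6.24 on the other arrays. The 9 arrays were 1 of 5 DEN controls, 1 of 4 shared controls, 4 of 5 LT NTL and 3 of 3 LT tumors, so Xist differed between groups. The summed level of 7 hepatocyte markers was between 15.64 and 16.12 (log2) on all arrays, as the liver label requires. Myc was higher in MYC tumors than in MYC NTL by 1.94 ± 0.61 (log2, SE; adjusted p = 0.0217). Against the shared controls, LT tumors had higher Ltb (1.89 ± 0.37, adjusted p = 0.00112), whereas Lta differed by -0.17 ± 0.14 (adjusted p = 0.42). In LT NTL the Ltb difference from these controls was 0.63 ± 0.33 and was not called (adjusted p = 0.353). Higher Ltb was not particular to the LT model, since DEN tumors exceeded DEN controls by 1.32 ± 0.31 (adjusted p = 0.00118).

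Before a cell copies its DNA, replication origins are licensed. The origin recognition complex, Cdc6 and Cdt1 load a ring of Mcm2, Mcm3, Mcm4, Mcm5, Mcm6 and Mcm7, the core of the replicative helicase, onto DNA in the G1 phase. In S phase Cdc45 and the GINS complex join the ring, and Mcm10, which despite its name is no subunit of the ring, helps to activate the helicase. Geminin (Gmnn) and the CRL4-Cdt2 ubiquitin ligase, of which Dtl is the substrate receptor, keep Cdt1 from licensing an origin again. Most adult hepatocytes are quiescent, and many licensing genes are known as targets of E2F transcription factors.

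The promoter sequences are shown because most of the 9 genes were higher in tumors and E2F targets share a short site. RefSeq promoters of assembly GRCm38.p6, each from 250 bases before to 50 bases after a start annotated for a gene, matched 8 of the 9 genes. Positions count from that start, which need not be the end of the gene range printed further below. The Cdc6 window at -138 and the Mcm7 window at -165, for example, lie inside the ranges of their genes. Mcm7 had a pair of promoters and the others had 1 each. They were searched on both strands for the E2F letters TTTCCCGC, TTTCGCGC, TTTGCCGC and TTTGGCGC, and overlapping matches were merged. At least 1 match was found in 6 of the 8 genes, and 2.26% of all 32851 promoters held one. No match lay in the windows of Mcm2 and Mcm10. Each line gives 30 bases, 5′ to 3′ on the strand of the gene, with the matched letters in capitals.
Mcm3, 20 bases after the start (chr1:20820275-20820304, minus strand): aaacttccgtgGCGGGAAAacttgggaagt
Mcm3, 39 bases after the start (chr1:20820263-20820292, minus strand): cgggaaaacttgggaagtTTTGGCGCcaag
Mcm5, from -153 to -142 (chr8:75109347-75109376, plus strand): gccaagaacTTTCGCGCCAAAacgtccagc
Mcm6, from -110 to -99 (chr1:128359795-128359824, minus strand): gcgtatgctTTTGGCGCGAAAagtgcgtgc
Mcm6, from -47 to -40 (chr1:128359734-128359763, minus strand): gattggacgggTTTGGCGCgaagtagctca
Mcm7, from -165 to -158 (chr5:138172030-138172059, minus strand): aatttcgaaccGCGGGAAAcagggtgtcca
Mcm7, 17 bases after the start (chr5:138171849-138171878, minus strand): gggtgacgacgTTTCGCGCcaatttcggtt
Cdc6, from -138 to -131 (chr11:98908002-98908031, plus strand): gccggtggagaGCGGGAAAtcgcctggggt
Cdt1, 33 bases after the start (chr8:122568035-122568064, plus strand): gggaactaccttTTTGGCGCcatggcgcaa
In Mcm5 and Mcm6, 1 stretch held matches on both strands that share bases. The E-box CACGTG, the letters that MYC is known to bind, was found in none of the promoters of the 8 genes and in 7.15% of all promoters. The CCAAT letters were found in 6 of the 8 genes and in 37.4% of all promoters, with 3 matches in Mcm10. A match describes letters in these windows and says nothing of a factor binding there.

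Levels are RMA values on the log2 scale, and a gene was called when its limma adjusted p over all 18820 genes was under 0.05. In every model at least 6 of the 9 licensing genes rose from NTL to tumor, and Mcm10 fell in DEN and MYC tumors. The 9 genes were chosen with earlier results of these data known, so their counts beside all genes are a description. In DEN tumors 6 of the 9 genes rose and 1 fell, where 15.6% of all genes rose and 16.7% fell (32.2% were called in either direction). The median change of the 9 was 0.35, against -0.04 for all genes. In LT tumors 6 rose and none fell by this test, where 10.7% of all genes rose and 9.73% fell (20.4% in either direction). The median was 0.59, against -0.03 for all genes. In MYC tumors 7 rose and 1 fell, where 11.5% of all genes rose and 10.3% fell (21.8% in either direction), with a median of 0.85 against -0.03. Mcm2, Mcm3, Mcm5 and Mcm6 were called higher in the tumors of all 3 models. In bulk tissue, fewer cells of a type and less RNA per cell cannot be told apart.

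**Figure D1:**
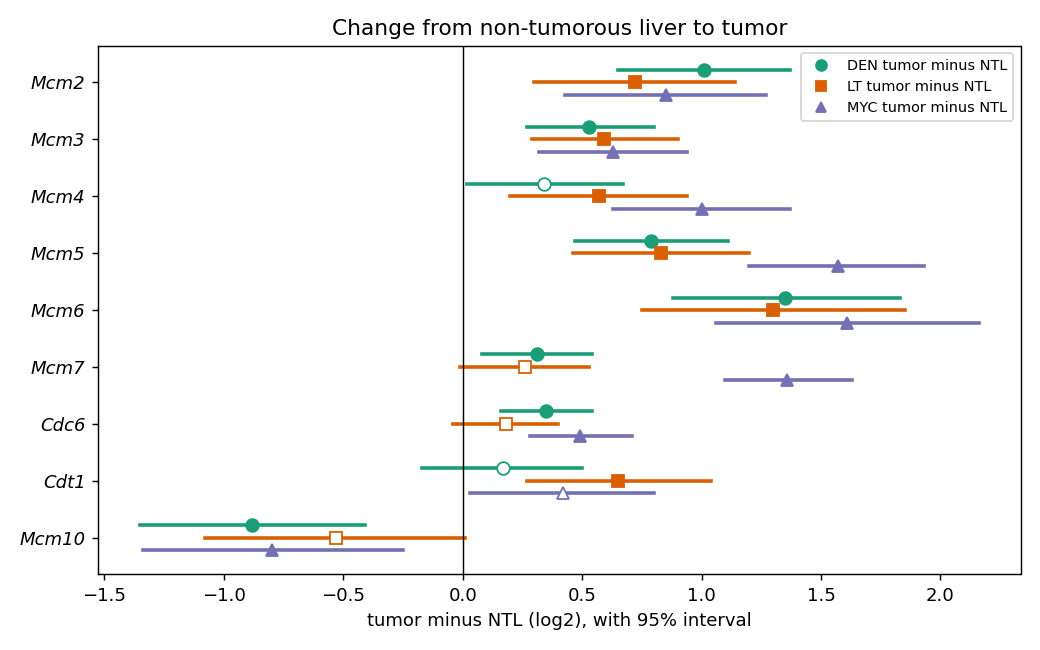
Difference between tumor and non-tumorous liver (x axis, log2) for each licensing gene (y axis) in the DEN, LT and MYC models. Symbols are fitted differences, lines their 95% intervals, and filled symbols mark an adjusted p under 0.05; Mcm6 stands furthest to the right in each model (1.35, 1.30 and 1.61), Mcm7 at 1.36 in the MYC model only, and Mcm10 left of 0 in all 3.

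The plot of values by array shows the levels behind these differences, gene by gene.

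**Figure D2:**
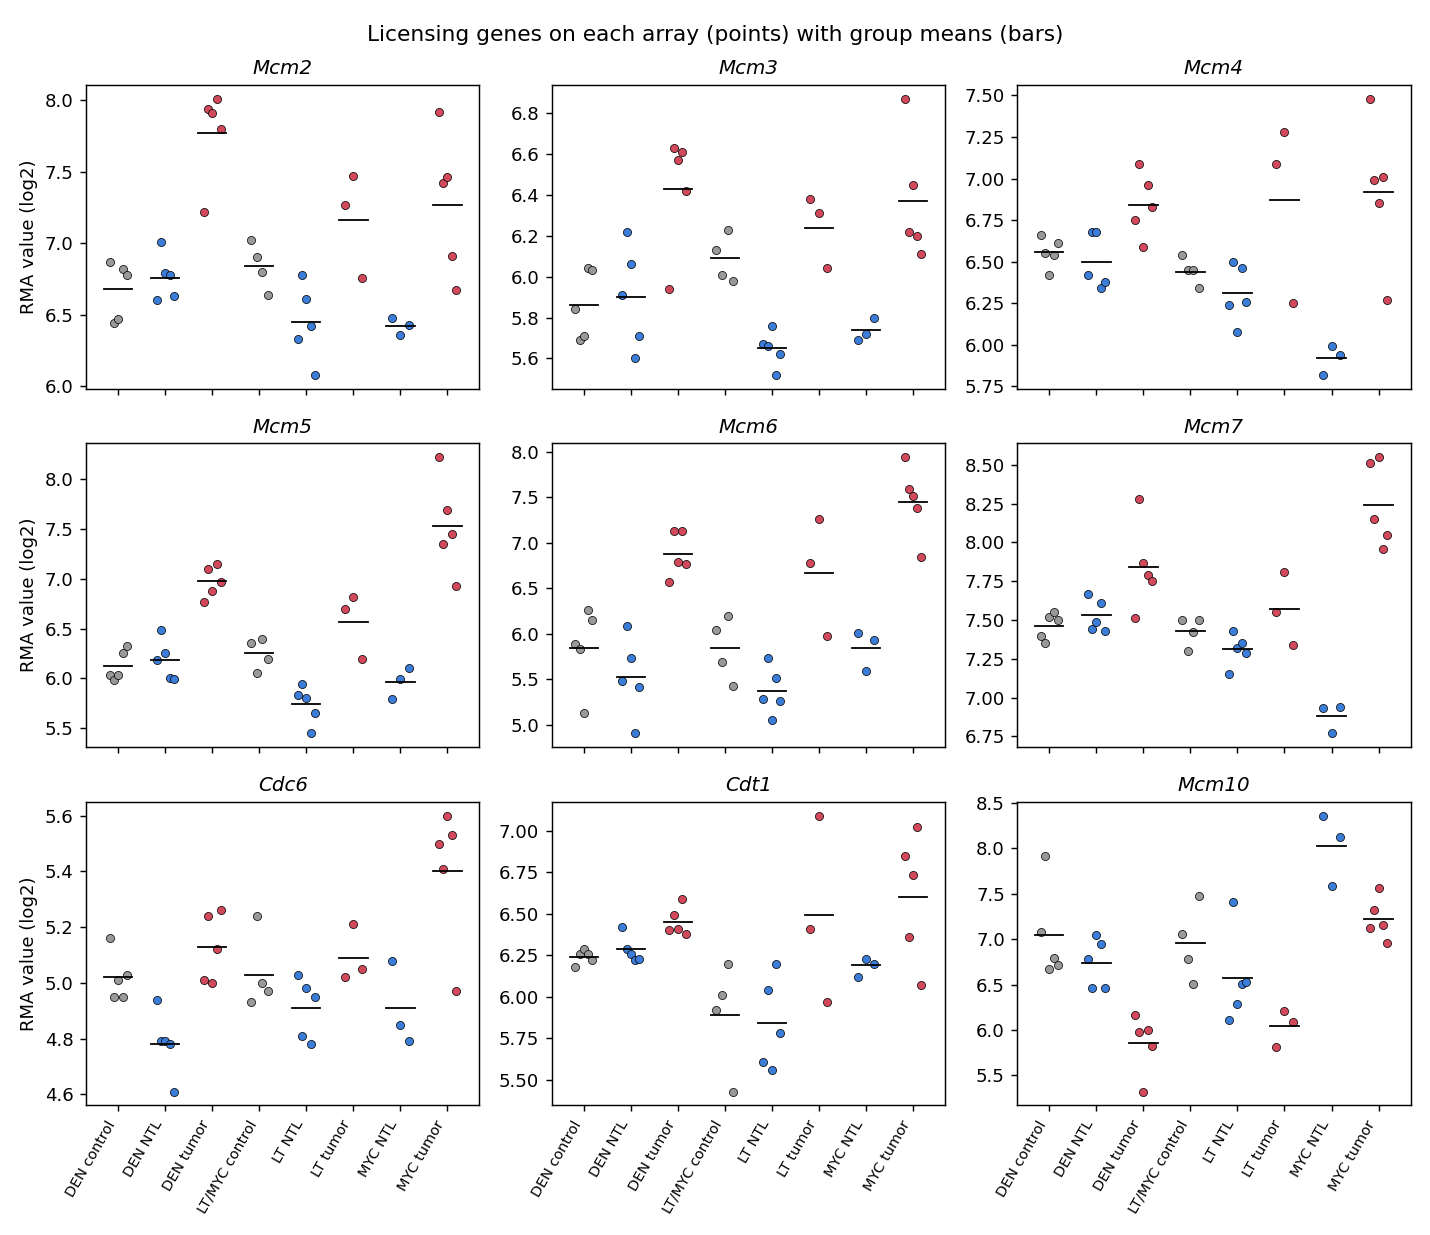
RMA value (y axis, log2) of each licensing gene in the 8 groups (x axis). Points are single arrays (gray controls, blue non-tumorous liver, red tumors) and bars are group means; the y axes differ between panels and do not start at 0. Tumor groups hold the 3 highest means for every gene but Mcm10, whose highest mean, 8.02, is that of MYC NTL.

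Mcm6 (chr1:128331575-128359705) had the largest fitted difference between tumor and NTL of the ring subunits in each model. DEN tumors had Mcm6 values of 6.57, 7.13, 6.79, 7.13 and 6.77, and DEN NTL had 5.48, 6.09, 5.74, 4.91 and 5.42. All 5 tumors lay above all 5 NTL pieces, and the difference was 1.35 ± 0.23 (SE; adjusted p = 3.68e-05), a 2.55-fold rise. LT tumors had 6.78, 7.26 and 5.98, and LT NTL had 5.28, 5.74, 5.06, 5.52 and 5.26. The groups again did not overlap, although the third tumor was close to the highest NTL piece, and the difference was 1.30 ± 0.27 (adjusted p = 8.86e-04). MYC tumors had 7.94, 7.59, 7.51, 7.38 and 6.84, and MYC NTL had 6.01, 5.59 and 5.93. The lowest tumor was above every NTL piece, with a difference of 1.61 ± 0.27 (adjusted p = 6.60e-05), a 3.05-fold rise. Against controls Mcm6 rose by 1.03 ± 0.23 in DEN tumors (adjusted p = 8.78e-04) and by 1.61 ± 0.25 in MYC tumors (adjusted p = 1.56e-05). In LT tumors the rise over controls was 0.83 ± 0.28 (adjusted p = 0.0402), and with the replicate number as a block it was 0.81 (adjusted p = 0.0539). That call was also lost without LT tumor 1 (0.78, adjusted p = 0.159), LT tumor 2 (0.54, adjusted p = 0.252), shared control 2 (0.78, adjusted p = 0.0914) or shared control 4 (0.69, adjusted p = 0.12). With LT tumors 1 and 2 averaged as 1 mouse it was 0.66 (adjusted p = 0.204). The call was lost too with only the groups compared in the fit (adjusted p = 0.218) or with array weights (0.89, adjusted p = 0.156). Quantile normalization gave 0.77 (adjusted p = 0.0572).

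Mcm5 (chr8:75109468-75128439) rose in all 3 models. MYC tumors had Mcm5 values of 8.22, 7.35, 7.69, 7.45 and 6.93, and MYC NTL had 5.79, 5.99 and 6.10. The groups were well apart, and the difference was 1.57 ± 0.18 (adjusted p = 4.33e-07), a 2.96-fold rise. DEN tumors had 6.77, 7.10, 6.88, 7.15 and 6.97, and DEN NTL had 6.18, 6.49, 6.25, 6.0 and 5.99. The tumors spread little and lay above all NTL pieces, by 0.79 ± 0.16 (adjusted p = 2.06e-04). LT tumors had 6.70, 6.82 and 6.19, and LT NTL had 5.83, 5.94, 5.80, 5.45 and 5.65. These did not overlap either, with a difference of 0.83 ± 0.18 (adjusted p = 0.00136). Against controls Mcm5 rose by 0.85 ± 0.16 in DEN tumors (adjusted p = 7.46e-05) and by 1.27 ± 0.17 in MYC tumors (adjusted p = 1.46e-06). In LT tumors it was 0.32 ± 0.19 above controls (adjusted p = 0.258), and the third LT tumor lay within the control range of 6.05 to 6.40.

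Mcm2 (chr6:88883474-88898780) had its highest group mean in DEN tumors, 7.77 ± 0.32 (SD, n = 5). The single DEN tumors had Mcm2 values of 7.22, 7.94, 7.91, 8.01 and 7.80, and DEN NTL had 6.60, 7.01, 6.79, 6.78 and 6.63. The first tumor stood below the other 4 but above every NTL piece, and the difference was 1.01 ± 0.18 (adjusted p = 4.87e-05), a 2.01-fold rise. MYC tumors had 7.92, 7.42, 7.46, 6.91 and 6.67 against 6.48, 6.36 and 6.43 in MYC NTL. They spread over 1.25 log2 units and did not overlap with NTL, with a rise of 0.85 ± 0.20 (adjusted p = 0.00309). LT tumors had 7.27, 7.47 and 6.76 against 6.33, 6.78, 6.61, 6.42 and 6.08 in LT NTL. The third tumor fell within the NTL range, and the rise of 0.72 ± 0.20 (adjusted p = 0.012) was not called without LT tumor 1 (0.67, adjusted p = 0.0799) or LT tumor 2 (0.57, adjusted p = 0.0939), nor with LT tumors 1 and 2 averaged as 1 mouse (0.62, adjusted p = 0.0692). Nor was this rise called with only the groups compared in the fit (adjusted p = 0.0756). Against controls Mcm2 rose by 1.10 ± 0.18 in DEN tumors (adjusted p = 1.35e-05). It was 0.32 ± 0.21 above controls in LT tumors (adjusted p = 0.313) and 0.43 ± 0.19 in MYC tumors (adjusted p = 0.103), and neither was called. Without MYC tumor 5 the latter was 0.58 (adjusted p = 0.0227).

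Mcm3 (chr1:20802966-20820312) rose in each model. DEN tumors had Mcm3 values of 5.94, 6.63, 6.57, 6.61 and 6.42 and DEN NTL had 5.91, 6.22, 6.06, 5.60 and 5.71. The first tumor lay within the NTL range, and the difference was 0.53 ± 0.13 (adjusted p = 0.00207). LT tumors, at 6.38, 6.31 and 6.04, lay above LT NTL, which ran from 5.52 to 5.76. The difference was 0.59 ± 0.15 (adjusted p = 0.00534), and 0.53 (adjusted p = 0.0564) without LT tumor 1 or 0.62 (adjusted p = 0.0548) with array weights. MYC tumors, at 6.87, 6.22, 6.45, 6.20 and 6.11, lay above MYC NTL, which ran from 5.69 to 5.80, by 0.63 ± 0.15 (adjusted p = 0.00291). Against controls the rise was called in DEN tumors alone among the 3 models (0.57 ± 0.13, adjusted p = 0.001), whereas LT tumors differed by 0.15 ± 0.16 (adjusted p = 0.544) and MYC tumors by 0.28 ± 0.14 (adjusted p = 0.157).

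Mcm4 (chr16:15623897-15637400) rose in LT and MYC tumors. MYC tumors had Mcm4 values of 7.48, 6.99, 6.85, 7.01 and 6.27 and MYC NTL had 5.82, 5.99 and 5.94. All tumors were above all NTL pieces, and the difference was 1.00 ± 0.18 (adjusted p = 1.83e-04). LT tumors had 7.09, 7.28 and 6.25, with the third inside the LT NTL range of 6.08 to 6.50. The LT difference of 0.57 ± 0.18 (adjusted p = 0.0259) was 0.41 (adjusted p = 0.214) with LT tumors 1 and 2 averaged as 1 mouse. This LT call was also lost with only the groups compared in the fit (adjusted p = 0.16) or with array weights (0.66, adjusted p = 0.0586). The LT difference changed on leaving out single arrays as well. It was 0.46 (adjusted p = 0.187) without LT tumor 1, 0.36 (adjusted p = 0.231) without LT tumor 2, 0.88 without LT tumor 3 and 0.51 (adjusted p = 0.0626) without LT NTL 3. DEN tumors ran from 6.59 to 7.09 and overlapped with DEN NTL, from 6.34 to 6.68, at a difference of 0.34 ± 0.16 (adjusted p = 0.0981). With only the groups compared in the fit this difference was called (adjusted p = 0.0347), and so was that from DEN controls (0.28, adjusted p = 0.0443). Against controls Mcm4 was 0.28 ± 0.16 higher in DEN tumors (adjusted p = 0.188) and 0.43 ± 0.19 in LT tumors (adjusted p = 0.124), which became 0.74 (adjusted p = 0.00304) without LT tumor 3. The rise of MYC tumors over controls, 0.47 ± 0.17 (adjusted p = 0.0423), was lost on leaving out any 1 array of MYC tumors 1 to 4 or of the 4 controls (0.33 to 0.51, adjusted p from 0.0502 to 0.148). It was also lost with only the groups compared (adjusted p = 0.128), Xist class as a covariate (adjusted p = 0.0739) or quantile normalization (adjusted p = 0.0616).

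Mcm7 (chr5:138164583-138172111) rose in MYC and DEN tumors and was not called in LT tumors. MYC tumors had Mcm7 values of 8.51, 8.15, 8.55, 7.96 and 8.05 and MYC NTL had 6.93, 6.77 and 6.94. The groups lay far apart, and the difference was 1.36 ± 0.13 (adjusted p = 1.58e-08), a 2.57-fold rise. DEN tumors had 7.51, 8.28, 7.87, 7.79 and 7.75 and DEN NTL had 7.67, 7.44, 7.49, 7.61 and 7.43. The first tumor lay among the NTL pieces, and the rise of 0.31 ± 0.11 (adjusted p = 0.0332) was not called without DEN tumor 2 (0.20, adjusted p = 0.153), DEN tumor 3 (0.30, adjusted p = 0.0602), DEN NTL 2 (0.29, adjusted p = 0.0681), DEN NTL 3 (0.30, adjusted p = 0.0598) or DEN NTL 5 (0.29, adjusted p = 0.0728). It was not called either with arrays centred on their median (0.28, adjusted p = 0.0578) or quantile normalized (0.27, adjusted p = 0.0688), or with only the groups compared in the fit (adjusted p = 0.0835). LT tumors had 7.55, 7.81 and 7.34 against 7.15 to 7.43 in LT NTL, a difference of 0.26 ± 0.13 (adjusted p = 0.167). Against controls Mcm7 rose by 0.82 ± 0.12 in MYC tumors (adjusted p = 8.32e-06) and by 0.37 ± 0.11 in DEN tumors (adjusted p = 0.0105; 0.26 and adjusted p = 0.0563 without DEN tumor 2). In LT tumors it differed from controls by 0.14 ± 0.14 (adjusted p = 0.516).

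The difference between models was tested as such. The Mcm7 change was smaller in DEN than in MYC tumors by -1.05 ± 0.17 (adjusted p = 8.74e-05) and smaller in LT than in MYC tumors by -1.10 ± 0.18 (adjusted p = 2.62e-04). The Mcm5 change was smaller in DEN than in MYC tumors by -0.77 ± 0.24 (adjusted p = 0.0256), a call lost without DEN NTL 2 (-0.70, adjusted p = 0.0524) or MYC NTL 1 (-0.69, adjusted p = 0.0899). With only the groups compared in the fit that call was lost too (adjusted p = 0.0593). Mcm5 also differed between LT and MYC by -0.73 ± 0.26, with an adjusted p of 0.0555. That difference was called without LT NTL 4 (-0.80, adjusted p = 0.0391), LT tumor 2 (-0.86, adjusted p = 0.031) or MYC tumor 5 (-0.88, adjusted p = 0.0129). Mcm4 differed between DEN and MYC by -0.66 ± 0.24 (adjusted p = 0.0636), and was called without DEN tumor 2 (-0.72, adjusted p = 0.0456) or MYC tumor 5 (-0.82, adjusted p = 0.00904). Between DEN and MYC 2 of 9 genes were thus called, both lower, where 15.1% of all genes were called, 7.12% higher and 7.98% lower. Between LT and MYC 1 of 9 was called lower, where 12.4% of all genes were called, 5.76% higher and 6.60% lower. Between DEN and LT no licensing gene was called by limma (0 of 9, and 0 at an unadjusted p under 0.05), where 13.9% of all genes were called, 6.30% higher and 7.61% lower. For that pair the 95% interval of the difference was -0.26 to 0.84 for Mcm2, -0.67 to 0.78 for Mcm6, -0.30 to 0.40 for Mcm7 and -0.99 to 0.02 for Cdt1. On leaving out LT tumor 3, Cdt1 was called between DEN and LT at -0.75 (adjusted p = 0.032), against -0.49 (adjusted p = 0.205) with all arrays and -0.19 (adjusted p = 0.674) without LT tumor 2. Cdc6 differed between LT and MYC by -0.31 (adjusted p = 0.177), and by -0.42 (adjusted p = 0.0266) without MYC tumor 5.

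The high MYC change of Mcm7 came from both sides of the comparison. MYC tumors had the highest Mcm7 mean of all groups, 8.24 ± 0.27 (SD, n = 5), and MYC NTL had the lowest, 6.88 ± 0.10 (n = 3). No MYC NTL array reached the lowest array of LT NTL, the next group in the order, at 7.15. Against the shared controls, which ran from 7.30 to 7.50, Mcm7 was lower in MYC NTL by -0.55 ± 0.14 (adjusted p = 0.0171). That call was lost without shared control 1 (-0.53, adjusted p = 0.0514), MYC NTL 1 (-0.57, adjusted p = 0.0583) or MYC NTL 2 (-0.49, adjusted p = 0.106).

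The microRNA genes Mir25, Mir93 and Mir106b lie within Mcm7 on the same strand, and have probe sets of their own. Their mature sequences, from RefSeq with the seed (bases 2 to 8) in capitals, are shown because the host gene rose in MYC tumors. The members miR-93-5p and miR-106b-5p share a seed, which miR-25-3p does not.
miR-93-5p (chr5:138165574-138165596): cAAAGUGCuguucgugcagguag
miR-106b-5p (chr5:138165787-138165807): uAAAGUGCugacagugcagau
miR-25-3p (chr5:138165332-138165353): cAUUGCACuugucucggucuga
The array probe sets are annotated to the hairpin genes and do not measure mature microRNA apart from the transcript that holds it. They were dim, with group means from 4.73 to 5.55, where the first quartile of all probe sets was between 4.13 and 4.24. In MYC tumors, where Mcm7 rose by 1.36, Mir25 differed from NTL by -0.05 ± 0.11, Mir93 by -0.09 ± 0.08 and Mir106b by 0.04 ± 0.10 (adjusted p = 0.81, 0.473 and 0.828). In LT tumors the 3 differences were -0.02, -0.11 and 0.03, and none was called (adjusted p = 0.925, 0.337 and 0.867). In DEN tumors Mir25 fell by 0.29 ± 0.10 (adjusted p = 0.0212) and Mir93 fell by 0.18 ± 0.07 (adjusted p = 0.0454), while Mcm7 was higher. DEN tumors had Mir25 values of 5.34, 5.34, 5.27, 4.93 and 5.43, all below the DEN NTL values of 5.58, 5.48, 5.53, 5.68 and 5.47. Mir106b differed by -0.21 ± 0.08 there (adjusted p = 0.0504). From DEN controls, DEN tumors differed by 0.08 ± 0.10 for Mir25, -0.30 ± 0.07 for Mir93 and -0.18 ± 0.08 for Mir106b (adjusted p = 0.584, 8.13e-04 and 0.109). Mir25 in DEN NTL was 0.37 ± 0.10 above DEN controls, which was not called (adjusted p = 0.114). Against the shared controls Mir106b was higher in MYC tumors by 0.27 ± 0.09 (adjusted p = 0.0295).

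**Figure D3:**
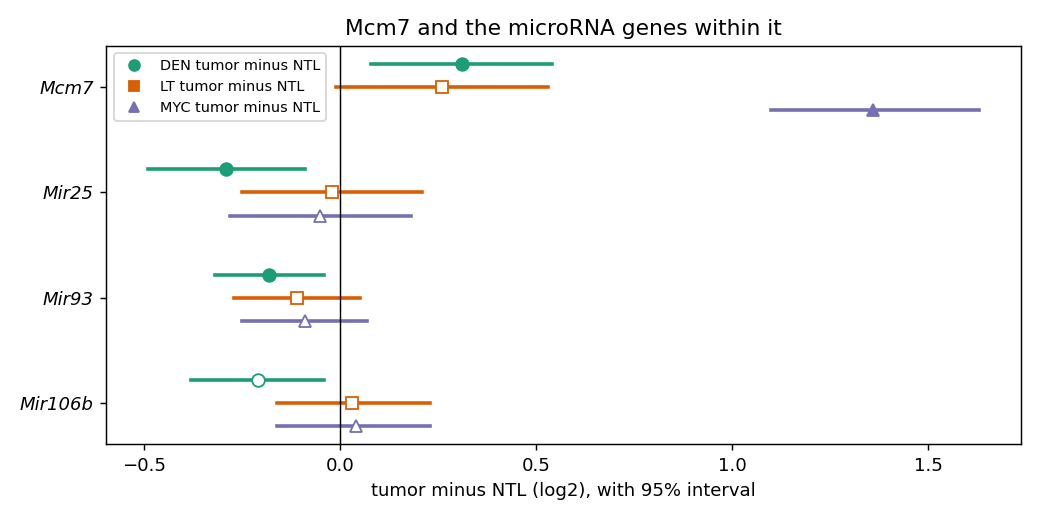
Difference between tumor and non-tumorous liver (x axis, log2) for Mcm7 and for the probe sets of the microRNA genes within it (y axis) in the DEN, LT and MYC models. Symbols are fitted differences, lines their 95% intervals, and filled symbols mark an adjusted p under 0.05; Mcm7 stands at 1.36 in the MYC model, where the 3 microRNA probe sets lie between -0.09 and 0.04.

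Of the loading factors, Cdc6 rose from NTL in DEN and MYC tumors and Cdt1 in LT tumors. Cdc6 (chr11:98907709-98923942), the ATPase that recruits the ring to origins, was dim, with group means from 4.78 to 5.40. MYC tumors had Cdc6 values of 5.50, 5.41, 5.60, 5.53 and 4.97 and MYC NTL had 5.08, 4.85 and 4.79. The fifth tumor lay within the NTL range and the other 4 above it, and the rise was 0.49 ± 0.11 (adjusted p = 0.00113). DEN tumors, from 5.00 to 5.26, lay above DEN NTL, from 4.61 to 4.94, by 0.35 ± 0.09 (adjusted p = 0.00431). DEN tumors did not stand above DEN controls, however, which ran from 4.95 to 5.16 (0.11 ± 0.09, adjusted p = 0.424). All 5 DEN NTL values of Cdc6 lay below all 5 controls, which held for 2.47% of all genes. The difference of -0.24 ± 0.09 was not called (adjusted p = 0.387). LT tumors differed from LT NTL by 0.18 ± 0.11 (adjusted p = 0.256) and from controls by 0.06 ± 0.11 (adjusted p = 0.764). MYC tumors were above controls by 0.37 ± 0.10 (adjusted p = 0.00697), and by the same 0.37 at an adjusted p of 0.0822 when the fit held only those groups.

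Cdt1 (chr8:122568015-122573130), the partner of Cdc6 in loading that geminin inhibits, was uneven in LT and MYC tumors. LT tumors had Cdt1 values of 6.41, 7.09 and 5.97 and LT NTL had 5.61, 6.04, 5.56, 6.20 and 5.78. The second tumor was far above, the third within the NTL range, and the rise of 0.65 ± 0.19 (adjusted p = 0.0129) was 0.35 (adjusted p = 0.215) without LT tumor 2 and 0.52 (adjusted p = 0.0971) with LT tumors 1 and 2 averaged as 1 mouse. With only the groups compared in the fit this rise was not called (adjusted p = 0.154). MYC tumors had 6.85, 6.36, 6.73, 7.02 and 6.07 and MYC NTL had 6.12, 6.23 and 6.20. The fifth tumor was below all NTL pieces, and the difference of 0.42 ± 0.19 was not called (adjusted p = 0.113) with it, and was called without it (0.55, adjusted p = 0.0307). DEN tumors ran from 6.38 to 6.59 and DEN NTL from 6.22 to 6.42, a difference of 0.17 ± 0.16 (adjusted p = 0.462). Against controls Cdt1 rose by 0.71 ± 0.17 in MYC tumors (adjusted p = 0.00316) and was 0.21 ± 0.16 higher in DEN tumors (adjusted p = 0.368). In LT tumors it rose over controls by 0.60 ± 0.20 (adjusted p = 0.0345), and the call was lost without LT tumor 1 (0.64, adjusted p = 0.0905), LT tumor 2 (0.30, adjusted p = 0.321), shared control 1 (0.61, adjusted p = 0.0549) or shared control 4 (0.45, adjusted p = 0.133). It was 0.47 (adjusted p = 0.174) with LT tumors 1 and 2 averaged, and with Xist class (high or low) as a covariate it was 0.55 (adjusted p = 0.152). The call was lost too with only the groups compared in the fit (adjusted p = 0.284) or with array weights (0.66, adjusted p = 0.0783). Quantile normalization gave 0.55 (adjusted p = 0.0501).

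Mcm10 (chr2:4990724-5012791) fell from NTL in DEN and MYC tumors. It was measured by 1 probe set, and whether that signal follows the Mcm10 transcript was not tested. DEN tumors had Mcm10 values of 6.16, 5.98, 5.32, 6.0 and 5.82 and DEN NTL had 6.78, 6.46, 7.04, 6.95 and 6.46. All tumors lay below all NTL pieces, and Mcm10 fell by 0.88 ± 0.23 (adjusted p = 0.00356), a 1.84-fold fall. MYC tumors had 7.12, 7.32, 7.56, 7.16 and 6.96 and MYC NTL had 8.36, 7.58 and 8.12. Here too the groups did not overlap, though only narrowly, and Mcm10 fell by 0.80 ± 0.27 (adjusted p = 0.0307). That call was lost without MYC NTL 1 (-0.63, adjusted p = 0.177), MYC NTL 3 (-0.75, adjusted p = 0.101), MYC tumor 1 (-0.77, adjusted p = 0.0533) or MYC tumor 5 (-0.73, adjusted p = 0.0655). LT tumors, at 5.81, 6.21 and 6.09, overlapped with LT NTL, at 6.11, 7.41, 6.29, 6.51 and 6.53, and the difference of -0.53 ± 0.27 was not called (adjusted p = 0.166).

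Against controls Mcm10 fell in DEN and LT tumors, and the difference between the models in this change was not tested. It fell by 1.18 ± 0.23 in DEN tumors (adjusted p = 1.63e-04), whose values all lay below the controls at 7.08, 7.91, 6.67, 6.79 and 6.72. It was lower in LT tumors than in the shared controls, at 7.06, 6.78, 6.51 and 7.48, by -0.92 ± 0.28 (adjusted p = 0.0229). That LT call was lost without shared control 4 (-0.74, adjusted p = 0.0859) or LT tumor 1 (-0.81, adjusted p = 0.135) or with LT tumors 1 and 2 averaged (-0.91, adjusted p = 0.073), and with Xist class (high or low) as a covariate the difference was -0.39 (adjusted p = 0.431). The LT call was lost too with only the groups compared in the fit (adjusted p = 0.148) or with array weights (-0.90, adjusted p = 0.188). MYC tumors were 0.26 ± 0.24 above the shared controls, within their spread (adjusted p = 0.5). MYC NTL had the highest Mcm10 mean of all groups, 8.02 ± 0.40 (SD, n = 3), with all 3 arrays above all arrays of MYC tumors, the next group in the order. It exceeded the shared controls by 1.06 ± 0.28 (adjusted p = 0.0253), a call lost without MYC NTL 1 (0.89, adjusted p = 0.182), MYC NTL 3 (1.01, adjusted p = 0.101), shared control 2 (1.00, adjusted p = 0.0621) or shared control 3 (0.91, adjusted p = 0.103).

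Mcm10 values are set beside Xist here because arrays of both Xist classes occurred within 3 groups. The DEN control with high Xist had the lowest Mcm10 of its group, 6.67 against 6.72 to 7.91 on the other 4. The shared control with high Xist had the lowest as well, 6.51 against 6.78 to 7.48 on the other 3. In LT NTL the 4 arrays with high Xist ran from 6.11 to 6.53, and the array with low Xist was at 7.41. In each of the 3 groups Mcm10 was thus lower on every array with high Xist, but a pair of these groups held 1 such array each and the other held 1 array with low Xist. In a fit with Xist class beside the groups, the Mcm10 difference was -0.71 ± 0.20, which over all genes had an adjusted p of 0.111 and was not called (0.850% of all genes were). For the other 8 genes this term lay between -0.31 and 0.06, with adjusted p from 0.765 to 0.992. In LT NTL, Mcm2, Mcm4, Mcm5, Mcm6 and Mcm7 were also lower on each array with high Xist than on the array with low Xist. The shared control with high Xist was instead the highest of its group for Mcm3, Mcm5, Mcm6 and Cdt1. In DEN controls Mcm4 and Mcm6 were lowest, and Cdt1 highest, on the array with high Xist. DEN NTL, DEN tumors, MYC NTL and MYC tumors held no array with high Xist. The part of sex in the Mcm10 differences was not tested.

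**Figure D4:**
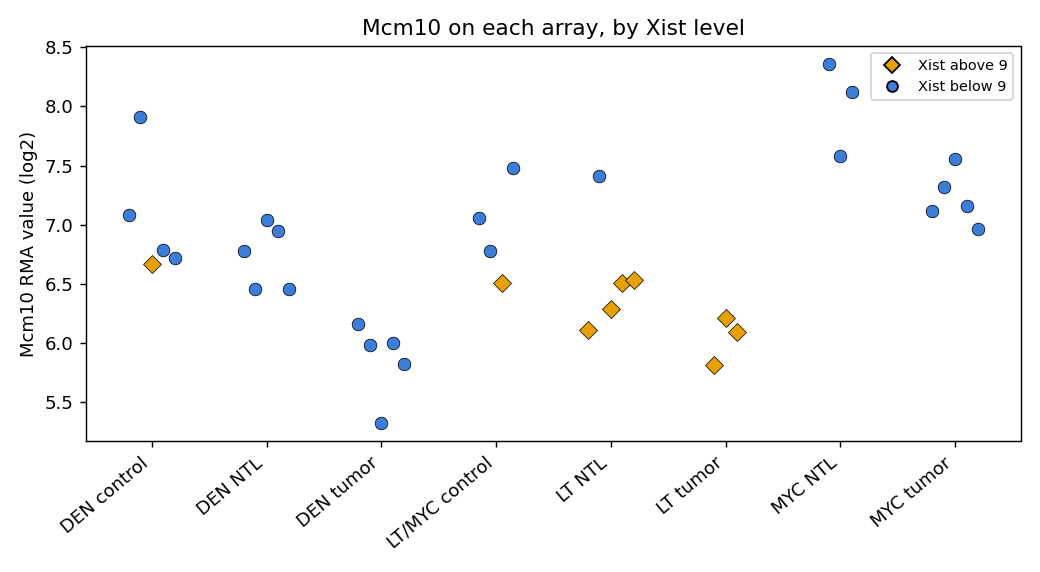
RMA value of Mcm10 (y axis, log2) on each array of the 8 groups (x axis), with diamonds for the 9 arrays whose Xist value was above 9 and circles for the others; the y axis does not start at 0. Within DEN controls, shared controls and LT NTL the diamonds lie below the circles, and the DEN tumors, all circles, lie between 5.32 and 6.16.

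Over all 35 arrays, which share the group differences, the genes whose pattern was most like Mcm10 included genes of liver metabolism. After the transcript 1700019A02Rik (Pearson r = 0.85), the closest were Hsd3b5 (r = 0.84), a steroid dehydrogenase of male mouse liver, Mup21 (r = 0.83), a major urinary protein, and Keg1 (r = 0.83). These genes were picked after their values were seen. From the deviations within groups their r with Mcm10 was 0.51, 0.40 and 0.59. These genes were chosen for following Mcm10 over the same groups, so their changes are a description. Mup21 differed between tumor and NTL by -2.93 ± 0.56 (DEN, adjusted p = 1.40e-04), -3.03 ± 0.65 (LT, adjusted p = 0.00118) and -2.32 ± 0.65 (MYC, adjusted p = 0.00987). Hsd3b5 differed by -3.96 ± 1.19 (DEN, adjusted p = 0.0104), -2.75 ± 1.37 (LT, adjusted p = 0.164) and -2.78 ± 1.37 (MYC, adjusted p = 0.153), and was called in DEN tumors alone. Keg1 differed by -1.85 ± 0.29 (DEN, adjusted p = 8.12e-06), -1.62 ± 0.33 (LT, adjusted p = 7.69e-04) and -0.86 ± 0.33 (MYC, adjusted p = 0.0592, not called). In MYC NTL against the shared controls Mup21 was higher by 2.42 ± 0.68 (adjusted p = 0.0372), while Hsd3b5 at 4.52 ± 1.43 (adjusted p = 0.075) and Keg1 at 1.16 ± 0.34 (adjusted p = 0.0529) were not called. With Xist class in the fit, Hsd3b5 differed by -4.76 ± 0.87 (adjusted p = 0.00264), Mup21 by -1.95 ± 0.46 (adjusted p = 0.0305) and Keg1 by -1.04 ± 0.23 (adjusted p = 0.0173) between arrays with high and low Xist.

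Pooled over all groups, the 6 ring subunits rose and fell together from array to array. Deviations from the group means gave Pearson r between 0.42 (Mcm6 and Mcm7) and 0.84 (Mcm3 and Mcm5) for the pairs of ring subunits over 35 arrays. Cdt1 deviated most with Mcm4 (r = 0.71) and Mcm6 (r = 0.60), and Cdc6 with no gene above 0.39. Against the mean of the other 8 genes, Mcm4 and Mcm5 reached 0.82, Mcm2 0.80, Mcm6 0.77, Mcm3 0.68, Mcm7 0.61, Cdt1 0.57 and Cdc6 0.42. Mcm10 had r = 0.05 with the other 8, and its pairwise values ran from -0.24 with Mcm3 to 0.18 with Mcm7. These values describe arrays that share the authors' normalization.

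**Figure D5:**
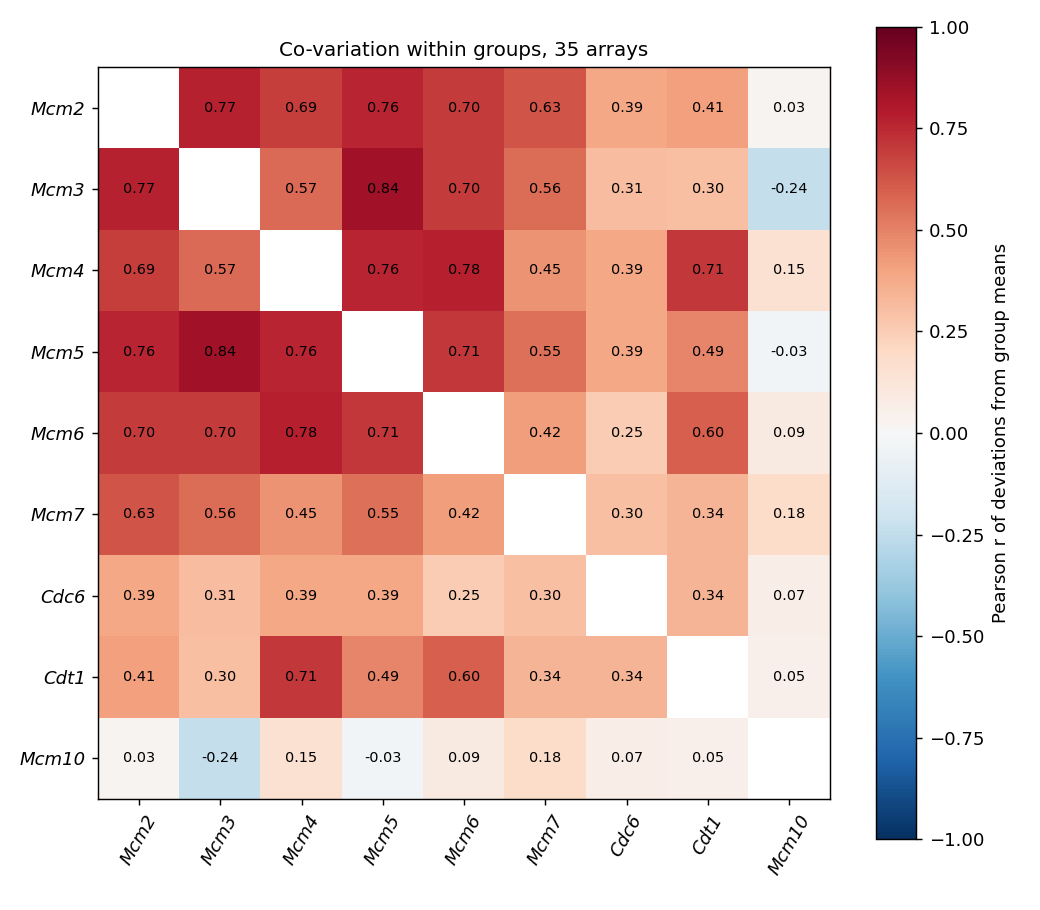
Pearson r between licensing genes (both axes), computed from deviations from the group means on 35 arrays; red is positive, blue negative, and each cell prints its r. The block of Mcm2 to Mcm7 runs from 0.42 to 0.84, and the Mcm10 row stays between -0.24 and 0.18.

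Single arrays were the highest or lowest of their group for most ring subunits, in DEN and LT NTL as in tumors. MYC NTL was mixed, with array 1 highest for 2 and lowest for 3 of 6. DEN NTL 2 and LT NTL 2 had the highest value of their groups for 5 of 6. LT NTL 2 was also the array of its group with low Xist (5.88, against 11.74 to 12.07 on the other arrays). LT tumor 3 had the lowest value of its group for 6 of 6 ring subunits, and LT tumor 2 the highest for 5 of 6. MYC tumor 1 was highest for 5 of 6 and MYC tumor 5 lowest for 5 of 6. DEN tumor 1 was lowest for 5 of 6. The proliferation marker Mki67 did not follow this order in every group: DEN tumor 1 had a Mki67 value of 8.68, second to 9.18 in DEN tumor 4, and MYC tumor 3 had the highest, 10.04, against 8.48 in MYC tumor 1. In LT tumors Mki67 was 7.60, 7.90 and 6.64, in the same order as Mcm2.

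The 10 genes that deviated within groups most like the mean of the 9 were Pole (r = 0.88), the catalytic subunit of DNA polymerase epsilon, Dtl (0.87), Cdc45 (0.81), Hells (0.81), Pcna (0.77), Rrm1 (0.77), Fignl1 (0.75), Uhrf1 (0.75), Mms22l (0.74) and Rbl1 (0.73). Of all other genes 1.09% had r above 0.5, and their median was -0.03. Mki67 had r = 0.46 and Top2a 0.49, lower than the 10, and Gmnn had 0.27.

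The counts of the lists below are read against the shares of all genes in the same comparisons with NTL, 15.6% higher and 16.7% lower in DEN tumors, 10.7% and 9.73% in LT tumors, and 11.5% and 10.3% in MYC tumors. Apart from genes named in every model, those printed are the largest called rises (at most 2) and fall (1) per list and comparison. A model that is not printed for a gene may therefore hold a change too. Of 18 measured genes of origin recognition and licensing control, 5 rose (27.8%) and 3 fell (16.7%) in DEN tumors against NTL, 2 rose (11.1%) and 3 fell (16.7%) in LT tumors, and 6 rose (33.3%) and none fell in MYC tumors. The share that fell in DEN and the share that rose in LT tumors were close to those of all genes. Cyclin A2 (Ccna2), which drives S phase, rose by 1.98 ± 0.38 (DEN, adjusted p = 1.38e-04), 1.78 ± 0.44 (LT, adjusted p = 0.0039) and 3.38 ± 0.44 (MYC, adjusted p = 1.94e-06). Dtl rose by 0.67 ± 0.24 in LT tumors (adjusted p = 0.0451) and by 1.06 ± 0.24 in MYC tumors (adjusted p = 0.00182). Cyclin E1 (Ccne1), which acts at the entry to S phase, rose by 1.02 ± 0.23 in DEN tumors (adjusted p = 7.72e-04). Relative to controls, Ccne1 also rose in MYC tumors (1.91 ± 0.24, adjusted p = 8.64e-07) and Dtl in DEN tumors (0.97 ± 0.21, adjusted p = 4.80e-04). Cul4a, the scaffold of the ligase that Dtl serves, fell by 0.68 ± 0.09 in DEN tumors (adjusted p = 1.29e-06) and by 0.47 ± 0.11 in LT tumors (adjusted p = 0.00244). Gmnn fell by 0.38 ± 0.12 in LT tumors (adjusted p = 0.0234) and differed by -0.02 ± 0.10 in DEN and -0.19 ± 0.12 in MYC tumors (adjusted p = 0.89 and 0.287). Gmnn was dim, with group means from 4.54 to 5.02. Relative to controls, Gmnn was higher in LT NTL (0.48 ± 0.11, adjusted p = 0.0159), and LT tumors differed by 0.10 ± 0.12 (adjusted p = 0.611).

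Of 11 measured genes of origin firing, 3 rose (27.3%) and 1 fell (9.09%) in DEN tumors, 3 rose (27.3%) and 1 fell (9.09%) in LT tumors, and 5 rose (45.5%) and none fell in MYC tumors. Ticrr, which brings Cdc45 to origins, rose by 0.58 ± 0.14 (DEN, adjusted p = 0.0016), 0.69 ± 0.16 (LT, adjusted p = 0.00277) and 0.72 ± 0.16 (MYC, adjusted p = 0.00159). Dbf4, the activator of the Cdc7 kinase that phosphorylates the Mcm ring, rose by 1.05 ± 0.28 in LT tumors (adjusted p = 0.00712) and by 1.27 ± 0.28 in MYC tumors (adjusted p = 0.00127). Relative to controls, Dbf4 also rose in DEN tumors (0.73 ± 0.24, adjusted p = 0.0197). Donson, a replication fork protein, rose by 0.83 ± 0.15 in DEN tumors (adjusted p = 1.11e-04). Gins4, a GINS subunit, fell by 0.26 ± 0.09 in DEN tumors (adjusted p = 0.0238) and by 0.30 ± 0.10 in LT tumors (adjusted p = 0.0347). Cdc45 rose by 0.41 ± 0.14 in MYC tumors (adjusted p = 0.0314) and differed by 0.05 ± 0.12 in DEN and 0.23 ± 0.14 in LT tumors (adjusted p = 0.782 and 0.263).

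Of 29 measured genes of the replication fork and nucleotide supply, 12 rose (41.4%) and 1 fell (3.45%) in DEN tumors, 3 rose (10.3%) and 2 fell (6.90%) in LT tumors, and 20 rose (69.0%) and 1 fell (3.45%) in MYC tumors. The share that rose in LT tumors was close to that of all genes. The medians of this list were 0.25, 0.21 and 0.46, against -0.04, -0.03 and -0.03 for all genes. Prim1, the primase, rose by 1.50 ± 0.21 in MYC tumors (adjusted p = 5.29e-06) and by 0.65 ± 0.21 in LT tumors (adjusted p = 0.0251). Chaf1b, a subunit of the chromatin assembly factor, rose by 1.01 ± 0.19 in DEN tumors (adjusted p = 1.09e-04). The DNA ligase Lig1 rose by 0.53 ± 0.16 in LT tumors (adjusted p = 0.0162), and Rpa1, which binds single-stranded DNA, fell by 0.38 ± 0.13 in DEN tumors (adjusted p = 0.0267). Rrm2, the regulated subunit of ribonucleotide reductase, rose by 0.94 ± 0.26 in DEN tumors (adjusted p = 0.00567) and by 1.70 ± 0.30 in MYC tumors (adjusted p = 1.25e-04). Thymidine kinase Tk1 fell by 1.35 ± 0.25 in LT tumors (adjusted p = 3.42e-04) and by 0.93 ± 0.25 in MYC tumors (adjusted p = 0.00781). Pcna, the sliding clamp, rose by 0.44 ± 0.16 in MYC tumors (adjusted p = 0.0448), and differed by 0.25 ± 0.14 in DEN and 0.39 ± 0.16 in LT tumors (adjusted p = 0.174 and 0.0872).

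Of 14 genes for E2F factors, their partners, pocket proteins and the inhibitor Cdkn1a, 3 rose (21.4%) and 2 fell (14.3%) in DEN tumors, 4 rose (28.6%) and 3 fell (21.4%) in LT tumors, and 6 rose (42.9%) and 2 fell (14.3%) in MYC tumors. Both shares in DEN tumors were near those of all genes. E2f1 rose by 0.61 ± 0.21 in LT tumors (adjusted p = 0.0405) and by 0.86 ± 0.21 in MYC tumors (adjusted p = 0.00375), and was 0.20 ± 0.18 higher in DEN tumors (adjusted p = 0.444). E2f8, a repressor of the family, was called in no tumor against NTL (adjusted p from 0.202 to 0.988). Rbl1, the pocket protein p107, rose by 1.13 ± 0.20 (DEN, adjusted p = 3.80e-05), 0.76 ± 0.23 (LT, adjusted p = 0.0159) and 1.38 ± 0.23 (MYC, adjusted p = 5.35e-05). E2f3 rose by 0.62 ± 0.13 in DEN tumors (adjusted p = 4.09e-04), and Tfdp2, a dimer partner of E2F, fell by 0.70 ± 0.18 in LT tumors (adjusted p = 0.00632). Rbl2, the pocket protein p130 of quiescent cells, fell by 0.50 ± 0.13 in DEN tumors (adjusted p = 0.00377) and by 0.92 ± 0.15 in MYC tumors (adjusted p = 5.42e-05). Cdkn1a, which encodes the cell cycle inhibitor p21, rose by 4.37 ± 0.48 in MYC tumors (adjusted p = 1.87e-07) and by 2.38 ± 0.48 in LT tumors (adjusted p = 6.99e-04). Relative to controls, Cdkn1a rose by 2.14 ± 0.44 in MYC tumors (adjusted p = 6.36e-04) and by 1.82 ± 0.41 in DEN tumors (adjusted p = 8.99e-04). In LT tumors it was not called against controls. Its mean was 6.09 in MYC NTL, 6.84 in LT NTL and 8.32 in the shared controls.

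Of 11 measured markers of mitosis and proliferation, 11 rose in each model, with medians of 1.60 (DEN), 1.34 (LT) and 2.38 (MYC). Mki67 rose by 2.11 ± 0.36 (adjusted p = 2.92e-05), 1.87 ± 0.41 (adjusted p = 0.00153) and 3.04 ± 0.41 (adjusted p = 3.87e-06). Ccnb2, a cyclin of mitosis, rose by 1.84 ± 0.46 in DEN (adjusted p = 0.00232) and by 1.89 ± 0.53 in LT tumors (adjusted p = 0.0106). In MYC tumors the mitotic kinases Plk1 (3.19 ± 0.42, adjusted p = 2.65e-06) and Bub1 (3.18 ± 0.43, adjusted p = 3.38e-06) rose most of this list. The medians of the 9 licensing genes in the same comparisons were 0.35, 0.59 and 0.85. RMA values of different probe sets need not respond alike to the same change, so the lists are set side by side as counts and medians only.

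Against control liver, 2 of the 9 genes were called in MYC NTL and none in DEN or LT NTL. In DEN NTL 0 of 9 were called against controls by limma (1 at an unadjusted p under 0.05, Cdc6), where 0.197% of all genes were called, 0.0691% higher and 0.128% lower. In LT NTL 0 of 9 were called (3 at an unadjusted p under 0.05), where 2.41% of all genes were, 1.37% higher and 1.04% lower. All 9 differences were below 0, with a median of -0.39 against -0.02 for all genes. The largest was Mcm5 at -0.52 ± 0.17 (adjusted p = 0.095), followed by Mcm6 at -0.47 ± 0.25 (adjusted p = 0.361) and Mcm3 at -0.44 ± 0.14 (adjusted p = 0.0842). In Mcm5 and Mcm3 every LT NTL value lay below every control, which held for 3.77% of all genes. With only the groups compared in the fit, Mcm5 (adjusted p = 0.0339) and Mcm3 (adjusted p = 0.0156) were called lower. With array weights Mcm5 (-0.54, adjusted p = 0.014), Mcm3 (-0.45, adjusted p = 0.0129) and Mcm2 (-0.52, adjusted p = 0.0264) were called lower. Without the arrays of high Xist, which left 1 LT NTL array, the Mcm5 difference was -0.26, and that of Mcm2 moved from -0.39 (adjusted p = 0.304 with all arrays) to -0.07. In MYC NTL Mcm10 was called higher (1.06) and Mcm7 lower (-0.55), where 3.83% of all genes were called, 1.66% higher and 2.17% lower. Mcm4, at 5.82 to 5.99 in MYC NTL, lay below every control, at -0.53 ± 0.19 (adjusted p = 0.126). In MYC NTL 4 of the 9 genes lay below every control and 1 above, where 12.3% of all genes lay below and 9.87% above. With only the groups compared in the fit, Mcm4 (adjusted p = 0.00641), Mcm2 (-0.42, adjusted p = 0.0359) and Mcm3 (-0.35, adjusted p = 0.038) were called lower there too. The 2 sets of controls differed in 0 of 9 genes (0 at an unadjusted p under 0.05), where 2.73% of all genes were called, 1.24% higher and 1.48% lower. Cdt1 came closest, at -0.35 ± 0.17 in the shared against the DEN controls (adjusted p = 0.38).

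Against controls, 5 of 9 licensing genes rose and 1 fell in DEN tumors, where 15.0% of all genes rose and 15.6% fell (30.7% in either direction). In LT tumors 2 rose and 1 fell, where 8.78% of all genes rose and 7.73% fell (16.5% in either direction). In MYC tumors 6 rose and none fell, where 10.2% of all genes rose and 10.3% fell (20.5% in either direction). All tumors lay above all controls for 4 of the 9 genes in DEN, none in LT and 3 in MYC. Of all genes, 10.1%, 7.20% and 7.85% did so. All tumors lay below all controls for 1 gene in DEN and 1 in LT, where 10.8% and 11.3% of all genes did. Because LT and MYC tumors were set against the same 4 controls, these comparisons are not independent.

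RNA of some cell type markers also differed between tumors and NTL. Each list is given by its members that passed the test, to be read against the shares of all genes given above. A single call was 14.3% of a list of 7 markers and 16.7% of a list of 6, near the shares of all genes in DEN tumors. With so few markers, 1 call does not set a list apart from all genes in any model. Of 6 Kupffer cell markers none rose and 6 fell in DEN tumors, with a summed level of 9.43 to 11.33 (log2) in tumors and 11.90 to 12.74 in NTL, while 2 fell in LT and 1 in MYC tumors. Of 6 markers of monocyte-derived cells none fell, 3 rose in DEN tumors, 6 in LT tumors and 4 in MYC tumors, and their summed level was 9.45 to 11.46 in LT tumors and 8.22 to 8.89 in LT NTL. Of 7 T and NK cell markers 3 rose and none fell in LT tumors (summed level 8.41 to 9.26 against 7.71 to 8.37 in NTL), and none rose and 1 fell in DEN and in MYC tumors. Of 7 B cell markers 2 rose and none fell in LT tumors (7.90 to 9.44 against 7.74 to 8.22), 1 rose and 2 fell in DEN tumors, and none was called in MYC tumors. Of 5 germinal center B cell markers 2 rose and 1 fell in DEN tumors, and 2 rose in LT and 3 in MYC tumors with none that fell. Of 6 stellate cell markers 1 rose and 2 fell in DEN tumors, 3 rose and none fell in LT tumors, and none rose and 3 fell in MYC tumors. Of 7 hepatocyte markers 1 rose and 1 fell in DEN tumors, both shares close to those of all genes, and none rose and 1 fell in LT and 3 in MYC tumors. Of 5 cholangiocyte markers 3 rose in DEN tumors, and none was called in the other models. Of 6 endothelial markers 3 rose and 1 fell in DEN and in LT tumors, and 1 rose and none fell in MYC tumors. Of 4 erythroid markers 1 rose and 1 fell in DEN and in MYC tumors, and none rose and 1 fell in LT tumors. The part of these cell types in the licensing gene changes was not tested.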

How the data were processed

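Liver RNA of 35 mouse samples in 8 groups (3 to 5 arrays each) was hybridized to Affymetrix arrays (Mouse Gene 1.1 ST), 1 per sample. The authors deposited 1 log2 value per probe set and array. The submitters' processing notes name RMA, a method that corrects background, normalizes by quantiles and summarizes probes. Its version, and whether the arrays were processed jointly, are not stated. RMA compresses differences of dim probe sets. Of 35556 probe sets, 21218 carried 1 gene symbol, and the brightest per gene gave 18820 genes, with no filter on dim genes. Array medians were 5.59 to 5.73. Precision depends on how many arrays a group has.

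All 35 arrays entered a single limma fit (limma 3.58.1, R 4.3.3) with 8 group means, moderated by eBayes, and p-values were adjusted by Benjamini-Hochberg across the 18820 genes. Errors beside differences are standard errors of this fit, and those beside group means are standard deviations. The fit was tested on simulated data. Labels call the samples replicates; where they come from 1 mouse, p-values measure the spread between pieces. The members and lists were chosen with earlier results of these data known. Named besides the 9 genes were the 10 genes most like them within groups, the largest called rises (at most 2) and fall (1) per list and tumor comparison, and Mki67, E2f1, E2f8, Gmnn, Pcna, Cdc45, Myc, Lta, Ltb, Xist and the microRNA genes within Mcm7; of the lists, those against NTL are printed. Gene and promoter positions are those of RefSeq, GRCm38.p6.

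Replicate numbers were checked for pairing by correlating deviations from group means. Same-numbered LT tumors and shared controls had r of 0.14 to 0.23 in all 3 pairs, so the fit with the replicate number as a block is given beside that comparison, although the mouse identifiers differ. Leaving out the arrays with high Xist was an alternative chosen after seeing the data. The other alternatives were the probe set rule, median centring, quantile normalization, a filter on dim genes, array weights, trended robust eBayes, only the groups compared, averaging of arrays that share an identifier stem, Xist class (high or low) as a covariate, the replicate block and leaving out each array.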

Additional observations from a re-analysis of the deposited data

Results flagged for a closer look

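Mcm2 in DEN tumor 1 was 7.22, and the other 4 DEN tumors lay between 7.80 and 8.01, a gap beyond the Dixon limit for 5 samples. It was 1 of 54 sets of values tested in this way, and chance flags about 1 set in 20.

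The change from NTL to tumor differed between models, by the test of the difference itself, for Mcm7 between DEN and MYC (-1.05, adjusted p = 8.74e-05) and between LT and MYC (-1.10, adjusted p = 2.62e-04), and for Mcm5 between DEN and MYC (-0.77, adjusted p = 0.0256).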

How the results depend on the processing

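The counts below are of the 9 licensing genes called by limma. In fits of only the groups compared, 3 were called in LT tumors against NTL (6 in all arrays), 0 in LT tumors against controls (3), 2 in LT NTL against controls (0), 5 in MYC NTL against controls (2) and 1 between the DEN and MYC changes (2). With only genes above the median gene mean of 6.19, which leaves out Mcm3, Mcm6 and Cdc6, the counts were 4 in DEN tumors against NTL (7), 5 in MYC tumors against NTL (8) and 2 between the LT and MYC changes (1). Array weights gave 0 in LT tumors, 3 in LT NTL and 4 in MYC NTL against controls. Averaging arrays that share an identifier stem gave 3 in LT tumors against NTL, 0 against controls and 2 between LT and MYC. In LT tumors against controls, Xist class as a covariate gave 1 and quantile normalization 1. Without the arrays of high Xist, an alternative chosen after seeing the data, MYC NTL against controls gave 1. In the other comparisons the lowest r of same-numbered arrays ran from -0.38 to 0.01. The largest mean among these was that between the control sets, 0.20 (from -0.01 to 0.45), against -0.05 for arrays with other numbers. The replicate block moved only the LT and MYC contrast past 1.5 times, to 2.

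Leaving out 1 array at a time gave 6 to 7 in DEN tumors against NTL, 5 to 6 against controls, 3 to 6 in LT tumors against NTL, 0 to 4 against controls, 7 to 8 in MYC tumors against NTL, 5 to 7 against controls, 0 to 2 in MYC NTL, 0 to 1 between DEN and LT, 1 to 3 between DEN and MYC and 1 to 3 between LT and MYC. It gave 0 throughout in DEN NTL, LT NTL and the control sets. Over single genes, 31 calls were lost and 21 gained in the other alternatives, 44 and 10 on leaving out an array, and no called value changed sign. Beyond the filter and the numbers of samples that some alternatives remove, the cause of these changes was not tested. The Mcm5 and Mcm6 rises from NTL to tumor were called in every alternative that tested them.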
